A study of Mus with 2 samples.

Results

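The 10 genes described here carry the interleukin-7 (IL-7) signal from its ligand to its first targets in mouse CT26 tumors. They are Il7, Il7r, Il2rg, Jak1, Jak3, Stat5a, Stat5b, Cish, Socs1 and Bcl2. They were chosen by name from the known pathway, out of 32285 features of the count matrices, and each was found once. Earlier results of these data were known when they were chosen, so counts of members set against all genes are descriptions. CT26 is a colon carcinoma cell line of BALB/c origin, and the cells were grown under the skin of BALB/c mice labelled 6 to 8 weeks old. The rIL7 tumor came from a mouse that received 10 µg of recombinant mouse IL-7 into the peritoneum on days 11 and 13 after transplantation. The control tumor came from a mouse given PBS. Both tumors are labelled day 15, both mice carried the same transplanted cells, and each group was 1 tissue section of 10 µm read on a Visium slide. A Visium spot is a small region of tissue that can hold several cells or parts of cells, and its unit of measurement is the unique molecular identifier (UMI), a count of captured transcript molecules. With 1 section per group no test between treatments was possible. All intervals below are 95% intervals of counting error only, and they do not cover differences between mice.

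IL-7 is made mainly by stromal and epithelial cells and keeps lymphocytes alive. It binds a receptor made of the IL-7 receptor alpha chain (Il7r) and the common gamma chain (Il2rg), which carry the kinases JAK1 and JAK3, and these activate the transcription factors STAT5A and STAT5B. STAT5 in turn switches on its own inhibitors Cish and Socs1 and the survival gene Bcl2. In T cells, IL-7 signaling is also known to lower Il7r transcription for a time.

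The control section held 2219 spots with 22951678 UMIs after filtering, and that of the rIL7 group held 1950 spots with 25729233 UMIs. A median spot had 9623 UMIs in control tissue and 12921.5 in rIL7 tissue, so levels are given as counts per 1000000 UMIs of the spots concerned (CPM), and no level is compared between genes. The outermost rings of the tissue were called the rim, using 2 grid rings of the largest connected piece, and the rest of that piece was called the interior. There were 401 rim spots in control tissue and 330 in rIL7 tissue. Cd3e, a subunit of the T cell receptor complex, was seen in 78 control spots (3.52%) and 284 rIL7 spots (14.6%), and these are called Cd3e-positive spots. The CT26 marker Baiap2l1 stood at 861 CPM in control tissue and 664 CPM in rIL7 tissue, so tumor transcripts were abundant in both. Summed over 14 T cell markers, the level was 200 CPM in control tissue and 385 CPM in rIL7 tissue, with 14 of 14 markers higher in the rIL7 section and none at 0. Trbc2 and Thy1 made up most of that sum in the control, 136 of 200 CPM, with ratios of rIL7 to control of 1.17 and 1.40, while the other 12 markers ranged from 2.57 to 4.88 and had a summed ratio of 3.40 (3.21 to 3.61), a split made after the values were seen. In spots, more cells of a type and more RNA per cell cannot be told apart.

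Cish, Il7r, Bcl2 and Il7 stood at least 1.3-fold higher in the rIL7 section than in the control. This is 4 of 10 members with at least 20 UMIs over both sections, against 12.2% of all 14313 genes measured that well. None was 1.3-fold lower, against 11.3% of all genes. The median log2 ratio of the members was 0.33, and that of all genes was -0.0022. In each section the tissue was also divided into 4 quadrants at the median array row and column. For 6 of 10 members, every quadrant of the rIL7 section stood above every quadrant of the control, against 9.74% of all genes, and for 0 of 10 every quadrant stood below, against 9.77%. Quadrants of 1 section are not replicates.

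**Figure D1:**
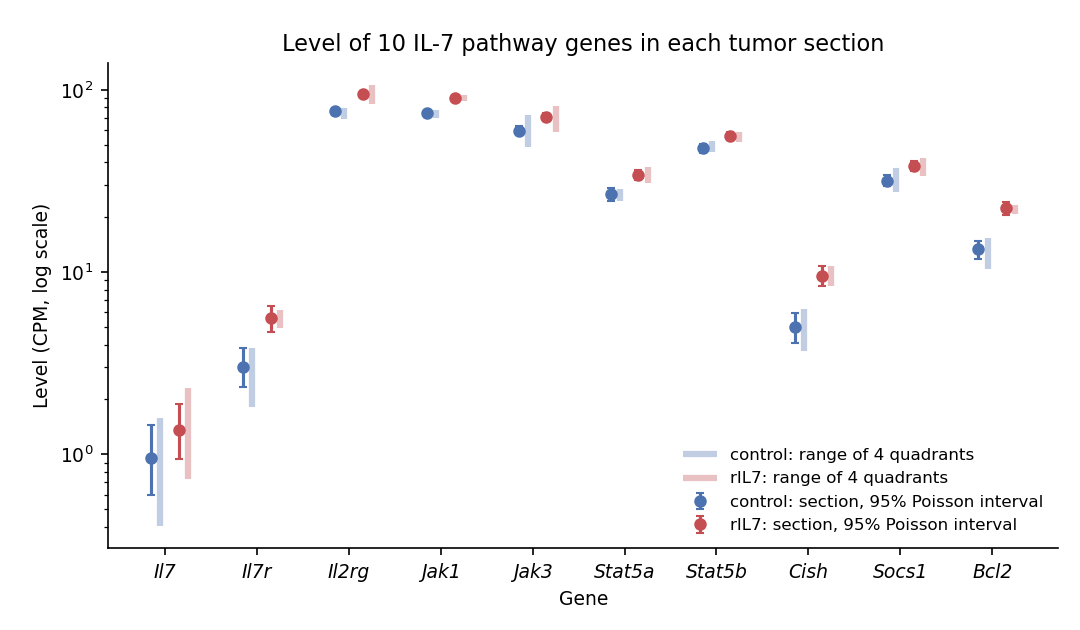
Level of each of the 10 genes (CPM, log scale) in the control and rIL7 sections. Points give the section level with its 95% Poisson interval and pale bars the range over 4 quadrants of that section. The quadrant ranges stood apart for Il7r, Il2rg, Jak1, Stat5a, Cish and Bcl2 and overlapped for Il7, Jak3, Stat5b and Socs1.

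The ligand was close to the limit of detection. Il7 (chr3:7572028-7613760 in GRCm38.p6, RefSeq) gave 22 UMIs in control tissue (0.959 CPM) and 35 in rIL7 tissue (1.36 CPM), never more than 1 per spot. The ratio of 1.42 had a counting interval of 0.810 to 2.54, which includes 1, and the quadrant ranges overlapped. The injected protein leaves no transcript, so these UMIs came from tissue Il7 alone. The share of Il7-positive spots with Il7r in the spot or next to it was not above that of all spots. In the control it was 3 of 22 (13.6%), where 18.1% of all spots had it. For rIL7 tissue it was 13 of 35 (37.1%), where 37.1% of all spots had it.

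Of the receptor chains, Il7r differed more between the sections than Il2rg. Il7r (chr15:9506159-9529941) gave 69 UMIs in control tissue (3.01 CPM) and 143 in rIL7 tissue (5.56 CPM), a ratio of 1.85 (1.38 to 2.50). Control quadrants ranged from 1.83 to 3.84 CPM and rIL7 quadrants from 4.95 to 6.20 CPM, without overlap. The transcript was sparse in both, in 67 control spots (3.02%) and 135 rIL7 spots (6.92%). Spots with at least 5000 UMIs were also thinned to that depth in 1 random draw. This left out 129 control spots and 49 rIL7 spots. The shares were then 1.44% (0.971 to 2.04) of 2090 control spots and 2.68% (2.00 to 3.51) of 1901 rIL7 spots, so the higher share was also seen at equal depth. Il2rg (chrX:101264385-101268255), which also serves the receptors for IL-2, IL-4, IL-9, IL-15 and IL-21, gave 1745 UMIs in control tissue (76.0 CPM) and 2431 in rIL7 tissue (94.5 CPM). Its ratio was 1.24 (1.17 to 1.32), below the 1.3-fold rule, although every rIL7 quadrant (83.5 to 106 CPM) stood above every control quadrant (69.4 to 79.2 CPM).

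The kinases and transcription factors were all modestly higher in the rIL7 section, and none reached 1.3-fold. Jak1 (chr4:101151974-101265282), the kinase bound to the IL-7 receptor alpha chain, stood at 74.1 CPM in control tissue and 89.7 CPM in rIL7 tissue, a ratio of 1.21 (1.14 to 1.29). Jak3 (chr8:71676383-71690577), the kinase bound to the common gamma chain, stood at 59.6 and 71.0 CPM, a ratio of 1.19 (1.11 to 1.28). The quadrants stood apart for Jak1 and overlapped for Jak3. Stat5a (chr11:100859351-100885169) had 26.7 CPM in control tissue and 34.1 CPM in rIL7 tissue, a ratio of 1.28 (1.15 to 1.42) with quadrants apart. Stat5b (chr11:100780731-100859004) had 47.7 and 55.8 CPM, its ratio was 1.17 (1.08 to 1.27) and its quadrants overlapped. Stat5a and Stat5b are neighbours on chromosome 11 with closely similar sequences, and how reads were split between them was not examined.

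Among the STAT5 targets, Cish and Bcl2 differed between the sections by more than 1.5-fold and Socs1 did not. Cish (chr9:107296659-107302784), a STAT5-induced inhibitor of cytokine receptors, gave 114 UMIs in control tissue (4.97 CPM) and 244 in rIL7 tissue (9.48 CPM), a ratio of 1.91 (1.52 to 2.41). Its control quadrants reached 6.29 CPM at most, and its rIL7 quadrants began at 8.40 CPM. Cish was seen in 5.00% of control spots and 11.4% of rIL7 spots, and in 2.44% and 5.68% after thinning to 5000 UMIs. Bcl2 (chr1:106538176-106714290), which blocks apoptosis at the mitochondrion, gave 305 UMIs in control tissue (13.3 CPM) and 576 in rIL7 tissue (22.4 CPM), a ratio of 1.68 (1.46 to 1.94). Its quadrants were also apart, at 10.4 to 15.4 CPM against 20.8 to 23.2 CPM. Socs1 (chr16:10783808-10785536), an inhibitor of JAK kinases that interferon also induces, stood at 31.8 CPM in control tissue and 38.0 CPM in rIL7 tissue. Its ratio was 1.20 (1.09 to 1.32) and its quadrants overlapped. Markers of other cell types differed between these sections as well, with ratios of 1.93 (1.86 to 2.00) for the T cell list (3.40 without Trbc2 and Thy1), 2.15 (1.94 to 2.39) for 5 NK cell markers, 1.79 (1.72 to 1.87) for 5 neutrophil markers and 1.04 (1.03 to 1.05) for 8 macrophage markers. Not every marker of the neutrophil and macrophage lists was higher. The lowest count of a neutrophil marker was 20 UMIs in control and 13 in rIL7 tissue, and of a macrophage marker 1065 and 925. Other lists were lower in rIL7 tissue, among them mast cell (29.1 CPM in control, 22.4 in rIL7), keratinocyte (59.3 and 37.7) and skeletal muscle (63.9 and 6.96). The part of these cell types in the members' ratios was not tested.

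The ratios of rIL7 to control were higher in the rim than in the interior for all members but Il7. In the rim, 8 of 9 members with enough UMIs stood at least 1.3-fold higher in the rIL7 section, against 19.9% of all genes, and the median log2 ratio was 0.66 where that of all genes was 0.00049. In the interior it was 4 of 10, against 10.1% of all genes, with a median of 0.30. Il7r had a ratio of 3.94 (2.09 to 7.97) in the rim and 1.5 (1.07 to 2.13) in the interior. For Cish it was 3.25 (1.92 to 5.71) in the rim and 1.65 (1.28 to 2.15) in the interior. Il2rg went from 1.15 (1.07 to 1.23) in the interior to 1.77 (1.54 to 2.02) in the rim, and Jak3 from 1.13 (1.04 to 1.22) to 1.58 (1.32 to 1.88). Bcl2 was the member with the most even difference among those past the rule, at 2.01 (1.40 to 2.90) in the rim and 1.62 (1.39 to 1.89) in the interior. Jak1 and Stat5a also changed little between the zones, with 1.28 and 1.32 in the rim and 1.20 and 1.27 in the interior.

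Within the rIL7 section, Il7r, Cish, Il2rg and Socs1 stood at least 1.3-fold higher in the rim than in the interior, which is 4 of 10 members against 17.1% of all 13324 genes. Il7 alone stood lower, on 2 rim UMIs, against 18.8% of all genes. In the control section 0 of 10 members were higher in the rim, against 6.75% of all 13168 genes, and 0 of 10 lower, against 12.3%. The median log2 ratio of the members was 0.22 in the rIL7 section and -0.04 in the control, and for all genes it was -0.05 and -0.06.

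**Figure D2:**
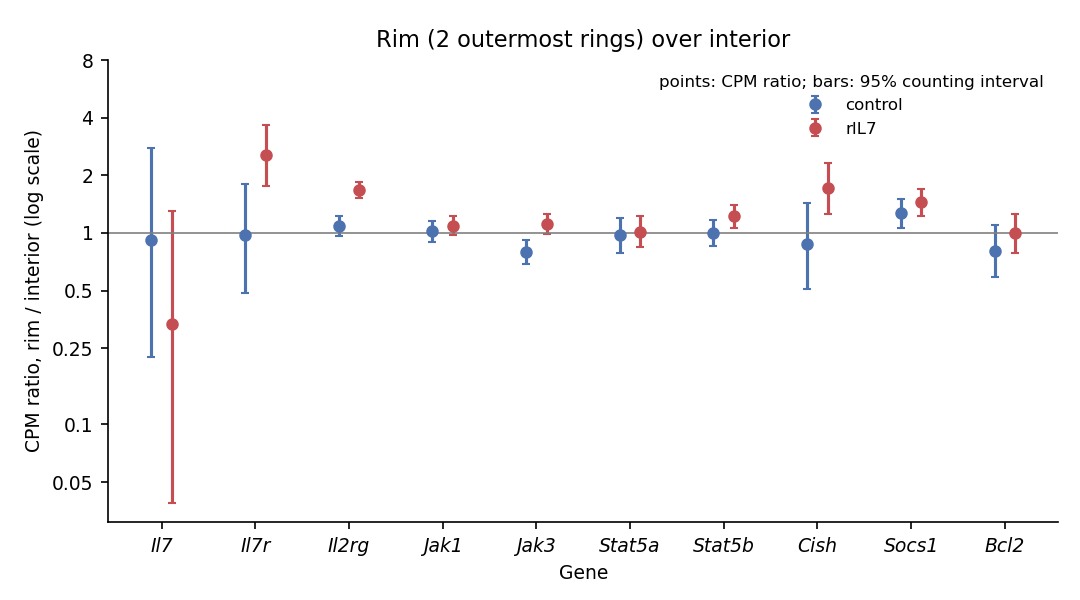
Ratio of the level in the rim to that in the interior for each gene and section (log scale), with 95% counting intervals. Points for Il7r, Il2rg, Cish and Socs1 in the rIL7 section lie at 1.45 or above, and the control points lie between 0.795 and 1.27.

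The receptor chains showed the clearest rim pattern. Il7r of the rIL7 section had 45 UMIs in the rim (11.5 CPM) and 97 in the interior (4.48 CPM), a ratio of 2.56 (1.75 to 3.68). Its rim was higher in 4 of 4 quadrants, with 8.75 to 13.3 CPM in the rim and 3.97 to 4.94 CPM in the interior. In the control, Il7r had 13 UMIs in the rim (2.91 CPM) and 55 in the interior (2.99 CPM), a ratio of 0.972 (0.487 to 1.80). The rim-to-interior ratio of Il7r in the rIL7 section was thus 2.63 times that in the control, with a counting interval of 1.26 to 5.78 that lies above 1. Il2rg stood at 144 CPM in the rim of the rIL7 section and 85.6 CPM in its interior, a ratio of 1.68 (1.53 to 1.85), again in 4 of 4 quadrants. In the control it stood at 81.4 and 74.6 CPM, a ratio of 1.09 (0.969 to 1.23). The ratio of the Il2rg ratios was 1.54 (1.32 to 1.79).

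The kinases divided. Jak1 was nearly even, with a rim-to-interior ratio of 1.09 (0.976 to 1.22) in the rIL7 section and 1.02 (0.902 to 1.15) in the control. Jak3 was lower in the control rim, at 49.4 CPM against 62.2 CPM in the interior, a ratio of 0.795 (0.685 to 0.919) that was below 1 in 4 of 4 quadrants. Jak3 in rIL7 tissue stood at 78.0 CPM in the rim and 69.9 CPM in the interior, a ratio of 1.11 (0.983 to 1.26). The ratio of the Jak3 ratios was 1.40 (1.16 to 1.70). Stat5a did not separate rim from interior in either section, at 1.02 (0.840 to 1.22) in the rIL7 section and 0.974 (0.789 to 1.19) in the control. Stat5b was slightly higher in the rIL7 rim, at 1.22 (1.06 to 1.40), and even in the control, at 0.999 (0.856 to 1.16), and the interval of the ratio of those ratios (0.994 to 1.5) includes 1.

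The targets of STAT5 did not share a pattern. Cish stood at 14.5 CPM in the rIL7 rim from 57 UMIs and 8.46 CPM in the interior from 183 UMIs, a ratio of 1.72 (1.25 to 2.32), and was higher in 3 of 4 quadrants. In the control it had 20 UMIs in the rim (4.47 CPM) and 94 in the interior (5.11 CPM), a ratio of 0.875 (0.511 to 1.43). The ratio of the Cish ratios was 1.96 (1.08 to 3.66). Socs1 was higher in the rim of both sections, at 51.2 against 35.4 CPM in rIL7 tissue, a ratio of 1.45 (1.23 to 1.69), and at 38.2 against 30.1 CPM in the control, a ratio of 1.27 (1.06 to 1.51). Its ratio of ratios, 1.14 (0.898 to 1.45), does not separate the sections. Bcl2 was level across the rIL7 section, with 22.4 CPM in the rim and 22.4 CPM in the interior, a ratio of 1 (0.789 to 1.26). In the control it was 11.2 and 13.8 CPM, a ratio of 0.810 (0.585 to 1.1). Il7 had only 2 UMIs in the rIL7 rim against 33 in the interior, a ratio of 0.334 (0.0388 to 1.31), and 4 against 18 in the control, a ratio of 0.914 (0.225 to 2.77).

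Ring by ring, Il7r in the rIL7 section went from 14.9 CPM in the outermost ring (27 UMIs) to 8.53 in ring 2 and 9.38 in ring 3. It stood at 4.43 CPM in rings 4 to 5, 3.35 in rings 6 to 8, 5.93 in rings 9 to 12 and 2.83 in rings 13 to 21. Ring 3, just inside the rim, was at the level of ring 2. The control had its highest value in ring 3, 6.07 CPM from 12 UMIs, and its lowest in rings 9 to 12, 1.77 CPM. Il2rg in the rIL7 section declined inward without interruption, from 147 CPM in ring 1 through 106 in ring 3 to 73.6 CPM in rings 13 to 21. In the control Il2rg was flat from ring 1 (83.4 CPM) to rings 4 to 5 (83.6 CPM) and ended at 61.5 CPM in rings 13 to 22. Cish in the rIL7 section went from 15.4 CPM in ring 1 down to 6.25 in rings 6 to 8 and back to 9.81 CPM in rings 13 to 21, so its center was not its lowest zone. Jak3 in the control was highest in the center, at 81.0 CPM (72.4 to 90.4) in rings 13 to 22 against 46.0 CPM (37.5 to 55.7) in ring 1.

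**Figure D3:**
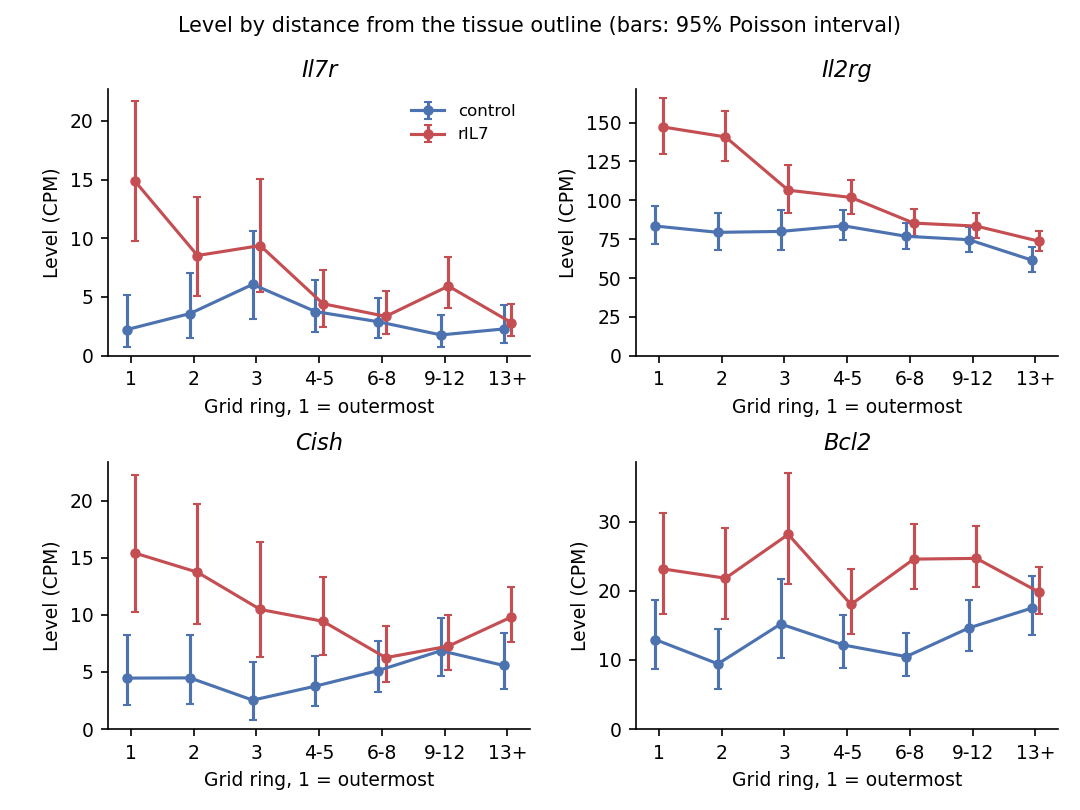
Level (CPM) of Il7r, Il2rg, Cish and Bcl2 by grid ring from the tissue outline inward, with 95% Poisson intervals, in the control and rIL7 sections. In the rIL7 section Il7r, Il2rg and Cish are highest in ring 1 (14.9, 147 and 15.4 CPM), and Bcl2 shows no slope.

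Markers of many cell types were also higher in the rIL7 rim. The T cell list summed to 777 CPM in the rim and 312 CPM in the interior, a ratio of 2.49 (2.39 to 2.60) with 14 of 14 markers higher. In the control these sums were 228 and 193 CPM, a ratio of 1.18 (1.1 to 1.27) with 10 of 14 higher. The 7 B and plasma cell markers reached 75.7 CPM in the rIL7 rim and 4.53 CPM in its interior, a ratio of 16.7 (13.3 to 21.2). They stood at 4.70 and 4.13 CPM in the control. Macrophage markers had a ratio of 1.73 (1.70 to 1.77) in the rIL7 section and 1.1 (1.08 to 1.13) in the control, and 5 endothelial markers 2.34 (2.06 to 2.66) and 1.25 (1.09 to 1.43). The control rim was instead higher in 5 keratinocyte markers, at 121 CPM against 41.0 CPM in the interior, a ratio of 2.94 (2.63 to 3.29), while Krt5 and Krt1 had no UMI in the rIL7 section. The part of these cell types in the rim levels of the members was not tested.

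Spots with Il7r were set against spots without it to see which markers lay with the receptor, in a comparison chosen after the levels were known. In the rIL7 rim, the 42 Il7r-positive spots had B and plasma cell markers at 158 CPM and the other rim spots at 62.2 CPM, a ratio of 2.54 (1.96 to 3.28). Endothelial markers had a ratio of 1.99 (1.54 to 2.55), T cell markers 1.23 (1.12 to 1.36) and macrophage markers 1.14 (1.09 to 1.19). In the rIL7 interior, the 92 Il7r-positive spots differed little from the rest, with 1.01 (0.913 to 1.11) for T cell markers, 1.05 (1.02 to 1.09) for macrophage markers and 0.807 (0.256 to 1.95) for B and plasma cell markers. In the control rim, the 13 Il7r-positive spots stood out by keratinocyte markers, at 468 CPM against 106 CPM, a ratio of 4.43 (3.47 to 5.59), with T cell markers at 1.13 (0.821 to 1.51). Spots with Cish in the control showed the same list at 3.89 (3.40 to 4.44), and in the rIL7 section at 0.940 (0.766 to 1.15). Nearly all of this list in the rIL7 section was 1 gene with 966 UMIs, while Krt5 and Krt1 had none. The most counted gene of the list in the control had 895 UMIs. The ratios of Cish-positive spots therefore rest on unlike markers and are not compared between the sections. The list itself did differ, at 59.3 CPM in control and 37.7 CPM in rIL7 tissue. All 5 of its markers were seen in the control.

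The relation to T cells was then examined through Cd3e-positive spots. Their median depth was close to that of the other spots, at 9582.5 and 9623 UMIs in the control and 13054 and 12866.5 in the rIL7 section. The mean depths were 10927 and 10322 UMIs in the control and 13419 and 13156 in the rIL7 section. In the rIL7 section the label held for other T cell genes. Cd3d had 24.4 CPM in Cd3e-positive and 11.1 CPM in Cd3e-negative spots, a ratio of 2.19 (1.71 to 2.79), and the 13 T cell markers without Cd3e together had a ratio of 1.51 (1.44 to 1.59). In the control it held only weakly. No control spot had more than 1 Cd3e UMI, and the 13 other markers had a ratio of 1.16 (0.999 to 1.34). Single genes went both ways there. Cd3d had 7 UMIs in Cd3e-positive control spots, a ratio of 2.16 (0.843 to 4.65). Cd4 had 2 UMIs, a ratio of 1.33 (0.156 to 5.14), and Cd8a, with 6 UMIs, was near even. Cd3g had 5 UMIs, a ratio of 0.737 (0.236 to 1.75). Trac, the T cell receptor alpha constant region, had 4 UMIs, a ratio of 0.629 (0.169 to 1.64). These intervals include 1.

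Il7r and Il2rg of rIL7 tissue stood at least 1.3-fold higher in Cd3e-positive than in Cd3e-negative spots, which is 2 of 10 members against 10.7% of all 13358 genes. None stood 1.3-fold lower, against 6.93%. The members' median log2 ratio was 0.04, and that of all genes was 0.0013. In the control 1 of 10 stood higher (Socs1), against 13.5% of all 13180 genes, and 2 lower (Il7r and Cish), against 17.5%. The control count rests on 1 Il7r UMI and 2 Cish UMIs in the 78 positive spots.

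**Figure D4:**
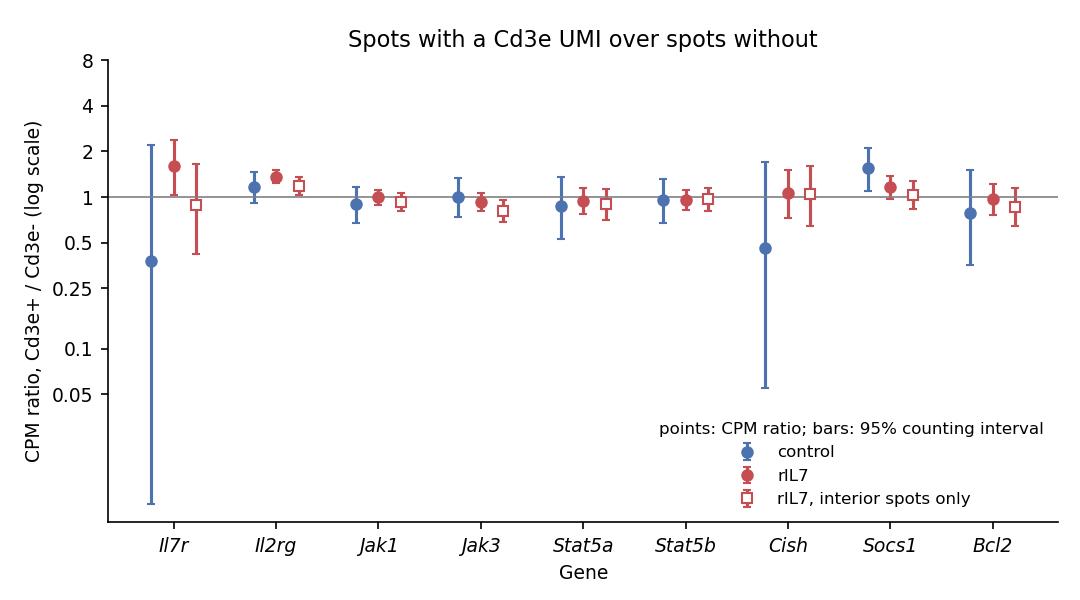
Ratio of the level in Cd3e-positive spots to that in Cd3e-negative spots (log scale, 95% counting intervals) for 9 genes in control tissue, in rIL7 tissue and in its interior only. Il7 is left out for its few UMIs. Il7r in the rIL7 section lies at 1.59 over all spots and at 0.882 in the interior.

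Il7r had 31 UMIs in Cd3e-positive spots of the rIL7 section (8.13 CPM) and 112 in the others (5.11 CPM), a ratio of 1.59 (1.03 to 2.39) that was above 1 in 4 of 4 quadrants. Cd3e-positive spots thus held 21.7% (15.2 to 29.3) of its UMIs and 14.8% of all UMIs, so most Il7r UMIs were captured where no Cd3e was. The ratio was above 1 in the rim and below 1 in the interior. In the rim there were 19 UMIs in the Cd3e-positive (18.1 CPM) and 26 in the Cd3e-negative spots (9.04 CPM), a ratio of 2.00 (1.05 to 3.76). In the interior there were 11 and 86, at 4.02 and 4.55 CPM, a ratio of 0.882 (0.425 to 1.66). These intervals overlap. In the rIL7 section 38 spots had at least 2 Cd3e UMIs. With that rule the log2 ratio of Il7r was 2.09 (1.11 to 2.95), against 0.67 with the rule of 1 UMI. Rim and interior were not separated under that rule, here or below, and Cd3e itself had a rim-to-interior ratio of 3.07 (2.43 to 3.88). In the control, Il7r had 1 UMI in Cd3e-positive spots and 68 in the others, a ratio of 0.381 (0.00952 to 2.20).

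Il2rg followed Cd3e with more counts behind it. It stood at 122 CPM in Cd3e-positive and 89.7 CPM in Cd3e-negative spots of the rIL7 section, a ratio of 1.36 (1.23 to 1.51) in 4 of 4 quadrants. The ratio was 1.43 (1.19 to 1.70) within the rim and 1.18 (1.04 to 1.35) within the interior, so part of it remained inside each zone. In the control it was 88.0 and 75.6 CPM, a ratio of 1.16 (0.911 to 1.47). In the 38 spots with at least 2 Cd3e UMIs its log2 ratio was 1.12 (0.82 to 1.39). Jak3, which pairs with this chain, stood at 0.925 (0.807 to 1.06) in the rIL7 section and 0.810 (0.683 to 0.955) in its interior, and its log2 ratio with at least 2 Cd3e UMIs was 0.20 (-0.26 to 0.63). Over all spots of that section Jak1, Stat5a and Stat5b had ratios of 0.998 (0.887 to 1.12), 0.946 (0.776 to 1.15) and 0.953 (0.818 to 1.11).

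Of the targets, none reached the fold rule in Cd3e-positive spots of the rIL7 section, where positive meant at least 1 Cd3e UMI. Socs1 had 43.0 against 37.1 CPM, a ratio of 1.16 (0.975 to 1.37), Cish 9.97 against 9.40 CPM, a ratio of 1.06 (0.730 to 1.51), and Bcl2 21.8 against 22.5 CPM, a ratio of 0.968 (0.758 to 1.22). In the control, Socs1 had 48.1 CPM from 41 UMIs against 31.1 CPM, a ratio of 1.55 (1.1 to 2.12). With spots positive for any UMI of Cd3d, Cd3e or Cd3g, the control log2 ratio of Socs1 was 0.12 (-0.16 to 0.40), and that value no longer passes the rule. With at least 2 Cd3e UMIs in the rIL7 section, the log2 ratios were 0.70 (0.16 to 1.20) for Socs1, 0.84 (-0.31 to 1.79) for Cish and 0.75 (0.02 to 1.39) for Bcl2, all past the fold rule. In that setting 6 of 10 members passed it, against 23.4% of all genes.

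Distance to the nearest Cd3e-positive spot ordered Il7r in the rIL7 section, at 8.13 CPM on such spots, 5.80 CPM next to them, 4.71 CPM at 2 steps and 2.84 CPM at 3 or more steps. The last value rests on 7 UMIs in 196 spots (1.14 to 5.86 CPM), and the intervals of neighbouring steps overlap. In the control, Il7r was highest at 2 steps, at 4.93 CPM. Next to Cd3e-positive spots of the rIL7 section, Cish stood at 10.8 CPM, compared with 7.65 CPM farther away, a ratio of 1.41 (1.05 to 1.90) that was above 1 in 3 of 4 quadrants. Socs1 stood at 40.1 and 33.3 CPM, a ratio of 1.20 (1.04 to 1.39), and Il2rg at 96.9 and 80.4 CPM, a ratio of 1.21 (1.1 to 1.32). Rim and interior were not separated in these distances, and the rim held 26.4% Cd3e-positive spots in rIL7 tissue where the interior held 12.2%.

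**Figure D5:**
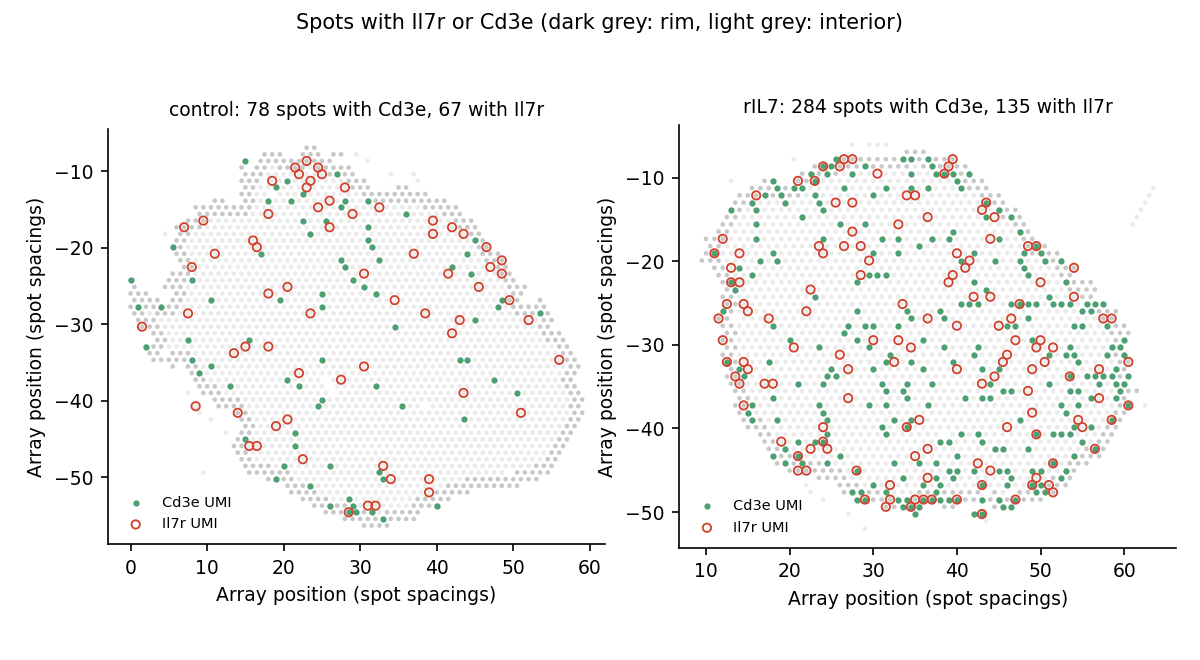
Position on the array (in spot spacings) of spots with an Il7r UMI (red rings) or a Cd3e UMI (green) in the control and rIL7 sections, with rim spots in dark grey and all other spots in light grey. The control has 67 spots with Il7r and the rIL7 section 135, of which 42 lie in the rim.

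Over single spots, detection of the other members in Il7r-positive spots was close to that in all spots of the rIL7 section. Of 135 Il7r-positive spots in the rIL7 section, 100 held Il2rg (74.1%, 65.8 to 81.2), which 67.7% of all spots did. Jak1 was in 71.1% of them and in 66.3% of all spots, Jak3 in 59.3% and 58.2%, and Cish in 11.9% and 11.4%, while Stat5b was in 46.7% and 51.2%. Each share of all spots lies inside the interval of the Il7r-positive share. In the control, Il7r-positive spots held Il2rg in 58.2% (45.5 to 70.2) and all spots in 51.1%, Jak1 in 59.7% and 51.0%, and Jak3 in 43.3% and 45.5%. Detection in a spot rises with its depth, so these shares are descriptions.

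Across 16 zones (rim and interior of 4 quadrants in each section) Il7r followed Stat5b and Jak1 most closely among the members, with Pearson correlations of log2(CPM + 1) of 0.88 and 0.86. Jak1 and Bcl2 had 0.87, and Il2rg and Socs1 had 0.83. Jak3 was the least coupled, with 0.10 to Socs1 and 0.30 to Il7r. Among 7607 other genes, those nearest to Il7r in pattern were Hif1a (0.919), Coro1c (0.916) and Il6ra (0.916). Nearest to Il2rg were Prkcd (0.958), Stxbp2 (0.957) and Akna (0.949), and nearest to Cish were Mier1 (0.933), Gabpa (0.887) and Ablim1 (0.874). Jak1 had Vcam1 (0.954), Hif1a (0.936) and Ninj1 (0.929), and Jak3 had Cdk17 (0.869) and Ckap5 (0.811). Stat5a lay nearest to Dpp8 (0.868), Emd (0.824) and Cdc42se1 (0.811), and Stat5b to Bach1 (0.936), Ncoa3 (0.915) and Akap13 (0.910). Socs1 had Slfn2 (0.929), Inpp5d (0.926) and Sdc3 (0.921), and Bcl2 had C1ra (0.945), Ptpn22 (0.920) and Ctdsp1 (0.915). The zones share 2 libraries, their depth and the treatment, so these values describe the zones and carry no test. The median over all genes for Il7r was -0.11.

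The rest of the pathway was taken from a list of 58 genes, of which 54 had at least 20 UMIs and Il4, Il9, Il21 and Il9r had fewer. That list too was drawn up with earlier results of these data known. Of the 54, 20 stood at least 1.3-fold higher in the rIL7 section, against 12.2% of all genes, and 2 lower, against 11.3%. Their median log2 ratio was 0.23. Among the other receptor chains of the family, 5 of 6 were higher. Il21r had a ratio of 2.84 (2.21 to 3.69), Il2rb 2.82 (2.51 to 3.18), Il2ra 1.61 (1.17 to 2.23), Il15ra 1.53 (1.39 to 1.69) and Il4ra 1.37 (1.29 to 1.44). Crlf2, the chain that pairs with Il7r to bind TSLP, had 1.11 (1.04 to 1.19). Il2rb, the beta chain for IL-2 and IL-15, was thus further from 1 than Il7r.

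Among the ligands, Tslp had the highest ratio, with 102 and 273 UMIs and a ratio of 2.39 (1.90 to 3.03), and Il15 had 1.20 (1.07 to 1.35). Of 7 other JAKs and STATs, 3 were higher, against 12.2% of all genes. Among them were Stat4 at 2.72 (1.93 to 3.89) and Jak2 at 2.17 (2.03 to 2.32), while Tyk2 stood at 0.994 (0.920 to 1.08). Stat4 serves the IL-12 receptor and Jak2 the interferon gamma receptor, so these are not specific to IL-7. Of 12 SOCS and phosphatase regulators, 4 were higher, again against 12.2%. They were Cblb at 1.80 (1.54 to 2.11), Socs3 at 1.75 (1.65 to 1.86), Socs2 at 1.74 (1.19 to 2.58) and Socs6 at 1.39 (1.21 to 1.61).

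Of 12 further STAT5 targets and survival genes, 3 were higher, against 12.2% of all genes, and 1 lower, against 11.3%. Osm, a cytokine induced by STAT5, had a ratio of 2.48 (1.91 to 3.25), Pim1, a survival kinase, 1.69 (1.51 to 1.88), and Id2, a regulator of lymphocyte differentiation, 1.57 (1.46 to 1.69). Bax, which promotes apoptosis against Bcl2, had 0.759 (0.739 to 0.780). In the PI3K and AKT branch 2 of 6 were higher, again against 12.2%, Pik3r1 at 1.49 (1.31 to 1.71) and Pik3cd at 1.38 (1.26 to 1.53). Of 8 regulators of Il7r transcription, Gfi1, a repressor of Il7r, had 15 and 34 UMIs, a ratio of 2.02 (1.07 to 4), and Ets1 had 1.31 (1.20 to 1.42). Klf2, a quiescence factor of T cells and endothelium, had 0.717 (0.662 to 0.775).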

How the data were processed

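Spatial libraries (Visium Spatial 3' v1) were made from 1 tumor section per group. The deposited values are unnormalized UMI counts for each gene in each spot, which the authors made with Space Ranger 1.1.0 on mm10, per the submitters' processing notes. Spots over tissue with under 10% mitochondrial UMIs and over 200 genes were kept, the limits given in the study's methods. Counts were summed over spots and divided by all UMIs of those spots to give CPM. Ratios of CPM carry exact conditional binomial (Clopper-Pearson) intervals, levels exact Poisson intervals and shares exact binomial intervals, all at 95% and for counting error only. Ratios between 2 ratios carry exact conditional intervals of the odds ratio. The code for both kinds of ratio interval was run on simulated Poisson counts, the model that the intervals assume. Clustering of transcripts in the tissue was not simulated, so coverage under clustering was not tested. No p-values were computed, since spots of 1 section are not replicates. A gene counted as higher or lower at 1.3-fold with at least 20 UMIs over the compared spots.

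The rim was the 2 outermost rings of array positions of the largest connected piece. The control had 12 spots off this piece and the rIL7 section had 21. Members, pathway genes and marker lists were chosen with earlier results of these data known. Named genes were all members, pathway genes past 1.3-fold or next to a member in the pathway, and the 3 genes nearest in pattern to each member with at least 200 UMIs. A few genes that this rule names are not reported here. All 10 members matched RefSeq (GRCm38.p6) for coordinates. Alternatives used edgeR 4.0.16 (TMM) and DESeq2 1.42.0 (median of ratios) for scaling only. Python 3.11.15, numpy 2.4.6, scipy 1.17.1 and R 4.3.3 were used. No sequences were analysed here.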

Additional observations from a re-analysis of the deposited data

Results flagged for a closer look

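The relation of Il7r to Cd3e-positive spots pointed opposite ways in the 2 sections. Its ratio of Cd3e-positive to Cd3e-negative spots was 0.381 for control tissue and 1.59 for rIL7 tissue. The rIL7 ratio was 4.17 times that of the control, with a counting interval of 0.658 to 173 that includes 1. The control value rests on 1 Il7r UMI in 78 spots. The directions changed under other settings. The log2 ratio was 0.77 in control spots thinned to 5000 UMIs. That value again rests on 1 Il7r-positive spot, among 40 Cd3e-positive spots, so it cannot decide the direction in the control. In interior spots of the rIL7 section the log2 ratio was -0.18. The difference between mice was not tested, since each group was 1 section.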

How the results depend on the processing

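Of 348 values recomputed under another setting, 319 kept their direction within the counting interval, 25 moved beyond it and 4 reversed. This total includes settings that could change little, as the spot filter removed only 2 control spots and 1 rIL7 spot. For rIL7 over control with rim spots only, 2 of 10 members kept their value, 7 moved and 1 reversed. With at least 2 Cd3e UMIs in the rIL7 section, 3 of 10 kept it and 7 moved. The count of members at least 1.3-fold higher in rIL7 over control was 4 and became 8 with rim spots only, where 19.9% of all genes passed. Higher in the control rim were 0 members, against 6.75% of all genes, and 1 with a rim of 1 ring or of 3 rings. The share of all genes is not given for those rim widths, so that count has no measure beside it. Higher in Cd3e-positive control spots was 1 member, and 2 with spots weighted equally (15.1% of all genes in that setting), 0 with any UMI of Cd3d, Cd3e or Cd3g (8.02%), and 3 with spots thinned to 5000 UMIs (22.7%). In the rIL7 section it was 2, and 6 with at least 2 Cd3e UMIs (23.4%), 4 with any UMI of Cd3d, Cd3e or Cd3g (10.2%), 1 in interior spots only (7.81%) and 1 at a fold of 1.5. The log2 ratio of Il7 in rIL7 over control reversed to -0.81 in the rim, from 4 control and 2 rIL7 UMIs. By Cd3e, Il7r reversed to 0.77 in thinned control spots, on 1 Il7r-positive spot among 40 Cd3e-positive spots. It also reversed to -0.18 in interior rIL7 spots, and Cish reversed to 0.24 in the control with any of the 3 genes. The cause was not tested. No control spot had 2 Cd3e UMIs, so that setting was not run there. The pathway count of 20 ranged from 15 to 26. For that range and for the fold of 1.5 the share of all genes is not given either. No paired analysis was possible because each group was 1 section. Depth limits Il7, and every value in the control's Cd3e-positive spots that rests on a few UMIs.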

Other observations

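Of 6 other receptor chains of the gamma chain family, 4 were at least 1.3-fold higher in the rim of the rIL7 section than in its interior. In that section Il21r stood at 27.5 CPM in the rim and 6.75 CPM in the interior, a ratio of 4.08 (3.15 to 5.27), while in the control it stood at 3.58 and 3.43 CPM, a ratio of 1.04 (0.563 to 1.83). Il2rb stood at 82.3 and 40.2 CPM, a ratio of 2.05 (1.80 to 2.33), against 1.14 (0.881 to 1.46) in the control. Il2ra differed from these in being higher in the rim of both sections, at 2.57 (1.67 to 3.89) and 2.16 (1.21 to 3.75). Il15ra had 1.53 (1.32 to 1.77) in the rIL7 section and 1.24 (1.03 to 1.5) in the control. The remaining chains were near even in the rIL7 section, with 0.983 (0.893 to 1.08) for Il4ra and 0.95 (0.834 to 1.08) for Crlf2. Of 54 pathway genes, 18 were at least 1.3-fold higher in the rIL7 rim, against 17.1% of all genes, and 3 lower, against 18.8%. In the control 3 of 53 were higher, against 6.75%, and 2 lower, against 12.3%.

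Of 12 further STAT5 targets and survival genes, 2 were higher in the rIL7 rim (Pim1 and Id2), against 17.1% of all genes, and 1 lower (Bax), against 18.8%. Pim1 had a rim-to-interior ratio of 1.81 (1.56 to 2.10) in the rIL7 section and 1.17 (0.939 to 1.45) in the control. Bax had 0.678 (0.636 to 0.722) in the rIL7 section, Myc 0.850 (0.746 to 0.965) and Bcl2l1 0.892 (0.792 to 1). Socs2, one of 12 SOCS and phosphatase regulators of which 3 were higher and 1 lower, had 3.60 (2.23 to 5.74) in the rIL7 section and 1.29 (0.564 to 2.68) in the control. Klf2, lower in the rIL7 section as a whole, stood at 64.0 CPM in its rim and 40.1 CPM in its interior, a ratio of 1.60 (1.38 to 1.84), and was even in the control at 1 (0.876 to 1.15). Tslp lay the other way, at 0.585 (0.375 to 0.878) in the rIL7 section and 0.548 (0.273 to 1.01) in the control, so its higher level in the rIL7 section was not a rim pattern. Spots with Il7 in the rIL7 section had 1 UMI of the B and plasma cell markers among 35 spots, a ratio to the other spots of 0.130 (0.00327 to 0.726), and T cell markers at 0.848 (0.719 to 0.992). Rim and interior were not separated in these 2 ratios. Il7 had 2 UMIs in the rim and 33 in the interior, where both marker lists were lower. The part of position in these ratios was not tested.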
